A study of Mus musculus with 12 samples.

Results

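Chemokine and chemoattractant receptors are described here in neutrophils of the injured mouse liver. The set holds 9 of the 48709 gene rows of the count table, namely the receptor genes Cxcr2, Cxcr4, Cxcr5, Ccr1, Ccrl2, Fpr1, Fpr2 and C5ar1, together with Bcl9l, which adjoins Cxcr5 on the opposite strand. Members were found by their Ensembl identifier, without its version, in the GRCm38 annotation, and all 9 were among the 12488 genes that passed the filter on low values.

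RNA was sequenced from sorted neutrophils of C57BL/6N male mice aged 8 to 10 weeks. Control splenic neutrophils came from untreated mice (3 libraries), and hepatic neutrophils from livers taken 24 hours (4 libraries) or 72 hours (5 libraries) after a single intraperitoneal injection of carbon tetrachloride at 1 mL/kg in corn oil. All cells were enriched on Ly6G and then sorted as Ly6G-high, Ly6C-intermediate, CD11b+ and CD45+. Carbon tetrachloride is a hepatotoxin whose metabolism in hepatocytes kills the cells around the central veins. No liver of an untreated mouse and no liver of a mouse given corn oil alone was analysed here, so the organ, the injection and the injury change together between spleen and liver. Both liver groups were set against the same 3 spleen libraries, whose chance differences enter both comparisons. The labels name separate samples and do not say how many animals stand behind each library, so p-values measure the spread between these samples.

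Neutrophils find their way by heptahelical receptors coupled to inhibitory G proteins. Chemokine receptors read gradients of small secreted proteins, whereas the formyl peptide and C5a receptors read bacterial or mitochondrial peptides and complement fragments at sites of damage. CXCR2 and CXCR4 act against each other in the bone marrow: CXCR4 holds neutrophils there through CXCL12, CXCR2 releases them, and ageing neutrophils regain CXCR4. CXCR5 is best known on follicular B cells, which it draws to CXCL13.

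Each library held 1267089 to 3017403 counts on genes, so that 1 CPM (a count scaled to library size, after correction by the trimmed mean of M values) was worth 1.37 to 3.23 counts. Of the uniquely aligned reads, only 2.71% to 3.18% were counted on a gene. The kit preserves strand, the strand option of the counter is not given in the sources used here, and whether the counted reads come from each gene's own strand was not tested. Ly6g, which encodes the protein used for sorting, was low. It had 28.0 ± 16.2 CPM in the spleen (SD, n = 3) and 12.4 ± 10.1 at 24 hours (SD, n = 4). At 72 hours it had 4.71 ± 4.38 CPM (SD, n = 5), or 3 to 18 counts per library. Of the 15 neutrophil markers listed, only Camp was at 0 in every library of a group (24 hours), and their summed level was 1305 to 2890 CPM at 24 hours and 2081 to 3029 CPM at 72 hours. In the spleen it was 11426 and 11300 CPM in replicates 1 and 2 but 2711 CPM in replicate 3, which stood apart: its CPM of Ltf, which encodes the granule protein lactoferrin, were 208 against 1712 and 1637. Against the spleen 7 of the 15 markers were called lower at 24 hours and 9 at 72 hours, and none higher. These are 46.7% and 60% of the markers, beside 4.4% and 2.71% of all tested genes called lower. Of the 12 fits that left out 1 library, 0 to 10 lost a given one of these calls. Fits without spleen replicate 3 are among those that left out 1 library. T cell markers summed to 1.80 to 9.03 CPM over all libraries and hepatocyte and endothelial markers to 3.47 to 28.5 CPM. Libraries differed in their unaligned reads, with 1.91% and 1.98% in 72-hour replicates 2 and 3 and 49.6% to 50.7% in the other libraries. Member results that rest on this pair are therefore also given without it. For genes that are not members, no values without the pair are given. In bulk RNA, fewer cells of a type and less RNA per cell cannot be told apart.

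Of the 9 members, 7 share no exon base with a gene on the opposite strand. Cxcr4 (ENSMUSG00000045382.6) is encoded on the minus strand of chromosome 1 from 128588199 to 128592293, and Cxcr2 on its plus strand from 74153989 to 74161246. Chromosome 9 carries Ccrl2 from 111054486 to 111057519, Ccr1 from 123962124 to 123968692 and Cxcr5 (ENSMUSG00000047880.14) from 44511787 to 44561877, all on the minus strand. The formyl peptide receptor genes lie side by side on chromosome 17, Fpr1 from 17876471 to 17883940 on the minus strand and Fpr2 from 17887824 to 17893952 on the plus strand, and C5ar1 lies on the minus strand of chromosome 7 from 16246743 to 16259540.

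RefSeq promoter windows (GRCm38.p6) matched 7 of the 9 members, and the 250 bases before the start are shown for Cxcr4 and Ccrl2, which were both higher at 72 hours than in the spleen, and for Cxcr2, which passed the test in no comparison. Capitals mark matches, on either strand, to any of 6 motifs. For NF-κB the letters searched were GGGGNTTCC, for AP-1 they were TGANTCA and for C/EBP TTGCNNAA. For the hypoxia response element they were ACGTG, for the myeloid factor PU.1 they were GAGGAAG and for the TATA box TATAAA. These letters were chosen with the Ccrl2 windows in view. The sequences lie on the gene's strand, at chr1:128592300-128592549 (minus) for Cxcr4, chr9:111057519-111057768 (minus) for the most distal of 3 windows of Ccrl2, and chr1:74153744-74153993 (plus) for Cxcr2.
Cxcr4: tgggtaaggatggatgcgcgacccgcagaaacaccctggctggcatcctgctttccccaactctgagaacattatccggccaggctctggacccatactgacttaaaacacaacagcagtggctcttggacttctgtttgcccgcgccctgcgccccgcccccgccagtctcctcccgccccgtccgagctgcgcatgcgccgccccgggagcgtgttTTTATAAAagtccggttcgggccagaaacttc
Ccrl2: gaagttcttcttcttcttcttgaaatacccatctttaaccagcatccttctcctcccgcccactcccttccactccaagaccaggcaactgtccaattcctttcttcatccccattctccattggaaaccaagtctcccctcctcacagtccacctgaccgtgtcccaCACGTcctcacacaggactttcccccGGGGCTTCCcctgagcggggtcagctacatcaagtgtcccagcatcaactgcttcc
Cxcr2: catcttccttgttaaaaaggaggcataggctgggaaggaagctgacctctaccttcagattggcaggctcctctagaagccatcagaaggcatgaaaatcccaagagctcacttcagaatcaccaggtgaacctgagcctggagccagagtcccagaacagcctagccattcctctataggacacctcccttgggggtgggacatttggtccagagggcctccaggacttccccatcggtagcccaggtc
The Cxcr4 window holds TATAAA on both strands in 1 overlapping run, 30 bases before the start as read on the gene's strand. Of all 32851 windows of this length, 12.4% hold TATAAA, those of Fpr1 and Fpr2 among them. The Ccrl2 window holds GGGGNTTCC 56 bases before the start, as do 1.4% of all windows, and ACGTG on the opposite strand, as do 16.6%; the other 2 windows of Ccrl2 hold ACGTG and no match to GGGGNTTCC. No letters searched were found in the Cxcr2 window. A match describes the letters only.

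In 24-hour against control splenic neutrophils, 3 of the 9 members were called higher (Cxcr5, Ccrl2 and C5ar1) and none lower, where a call needs an edgeR adjusted p below 0.05 and a log2 fold change of 0.5 or more in either direction. Of all tested genes 9.75% were called in this comparison, 5.35% as higher and 4.4% as lower. Between 72-hour and splenic neutrophils 2 members were called, Cxcr4 and Ccrl2, both higher, against 5.33% of all genes (2.63% higher and 2.71% lower). Between the time points 2 members were called in opposite directions, Cxcr4 higher and Cxcr5 lower at 72 hours, against 4.49% of all genes (1.65% higher and 2.84% lower). Members had a median log2 fold change of 0.47, 0.49 and -0.56 in the 3 comparisons, beside -0.23, -0.02 and 0.18 over all tested genes. These genes were chosen with earlier results in view, so the counts describe them and do not test the list.

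**Figure D1:**
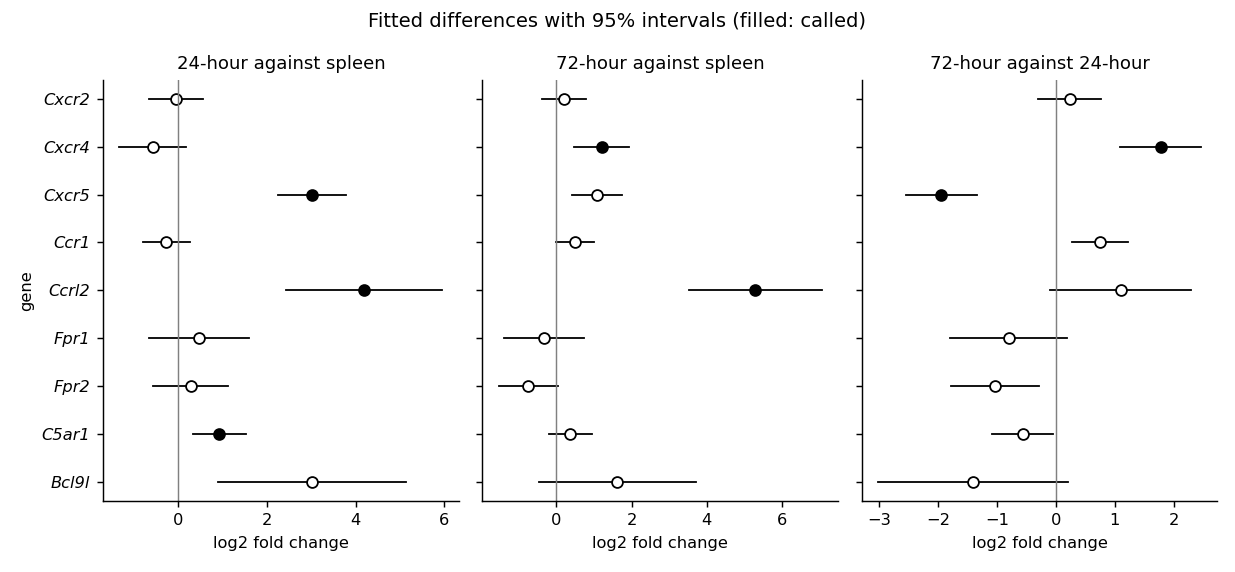
Log2 fold change of each member (points) with its 95% interval from the edgeR fit (bars) in the 3 comparisons; filled points passed the adjusted p and fold limits. Cxcr5 stands at 3.02 at 24 hours and Ccrl2 at 5.29 at 72 hours, and in the direct comparison of time points Cxcr4 (1.78) and Cxcr5 (-1.94) lie on opposite sides of 0; the Bcl9l values rest on 0 to 9 counts per library.

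Cxcr5 encodes the receptor for CXCL13. Its CPM were 86.3, 97.5 and 48.2 in spleen replicates 1 to 3, and 795, 788, 429 and 493 in 24-hour replicates 1 to 4. At 72 hours they were 118, 203, 82.9, 165 and 249 in replicates 1 to 5. Every 24-hour library thus lay above every other library, replicates 1 and 2 highest, whereas the 72-hour and splenic libraries overlapped. At 24 hours Cxcr5 exceeded its splenic level by 3.02 on the log2 scale (standard error, SE, 0.36; 95% interval 2.26 to 3.77, edgeR adjusted p = 1.8e-05), or 8.10-fold. From 24 to 72 hours Cxcr5 fell by 1.94 in log2 units (SE 0.29, edgeR adjusted p = 0.00144). Both calls were kept in all 22 alternatives. At 72 hours Cxcr5 was 1.08 above the spleen (SE 0.33, 95% interval 0.40 to 1.76), which missed the threshold (edgeR adjusted p = 0.0573); over the alternatives the adjusted p ran from 0.00153 to 0.182, and 4 of 22 put it below the threshold.

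Of the 9 markers of B cells, the cells best known for CXCR5, 3 were tested and edgeR called none. The summed level of the 9 overlapped between the groups and was 56.5 to 74.6 CPM in the spleen, 38.9 to 81.0 CPM at 24 hours and 36.5 to 60.4 CPM at 72 hours. At 24 hours Cd79b, Ms4a1, Ebf1 and Fcmr had no count in any library. Cd79a, which encodes a chain of the B cell receptor complex, made up most of the sum, with 47.9 ± 5.26 (SD, n = 3), 40.5 ± 15.1 (SD, n = 4) and 31.6 ± 10.4 (SD, n = 5) CPM in the 3 groups. Cd22, which encodes an inhibitory coreceptor of B cells, had 3.74 ± 1.05 CPM in the spleen (SD, n = 3), 12.4 ± 3.18 at 24 hours (SD, n = 4) and 10.7 ± 8.84 at 72 hours (SD, n = 5). Its log2 difference from the spleen was 1.71 at 24 hours (SE 0.57, edgeR adjusted p = 0.0599), in the direction of Cxcr5 and with no overlap between the groups, and 1.49 at 72 hours (edgeR adjusted p = 0.133). DESeq2 called 1 of the 3 tested markers at 24 hours. The part of B cells in the Cxcr5 difference was not tested.

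Bcl9l (ENSMUSG00000063382.5), a coactivator of β-catenin, is encoded on the plus strand from 44482825 to 44511896, and its end runs into the end of Cxcr5. The genes share 110 exon bases, all within UTRs of both genes, and a further 662 UTR bases of Bcl9l overlap Gm47205 on the opposite strand. Bcl9l had 1, 2 and 0 counts in spleen replicates 1 to 3, 9, 9, 2 and 2 counts in 24-hour replicates 1 to 4 and 3, 3, 4, 1 and 3 counts in 72-hour replicates 1 to 5. In the same libraries Cxcr5 had 150 to 269, 606 to 1313 and 217 to 588 counts. The 24-hour replicates with the most Cxcr5, 1 and 2, were also those with the most Bcl9l. Summed over libraries, Bcl9l was 9.75 times as high at 24 hours as in the spleen (22 against 3 counts, 95% interval 2.93 to 50.9, counting error only). Its edgeR adjusted p was 0.0621, which missed the threshold, whereas DESeq2 (0.0387) and limma-voom (0.0347) called it. In CPM each 24-hour library lay above those of the spleen, although 24-hour replicates 3 and 4 and spleen replicate 2 all had 2 counts. The groups of 4 members (Cxcr5, Ccrl2, C5ar1 and Bcl9l) did not overlap in this comparison, against 22.8% of all tested genes.

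The log2 ratio of Cxcr5 to Bcl9l counts (0.5 added to each) asks whether the neighbours kept the same proportion. In the spleen it was 7.32 ± 0.80 (SD, n = 3), at 24 hours it was 7.54 ± 0.54 (SD, n = 4) and by 72 hours 6.67 ± 0.72 (SD, n = 5). No difference in the ratio passed the exact two-sided permutation test, with p = 0.714 for 24 hours against spleen, p = 0.286 for 72 hours against spleen and p = 0.111 between time points (0.714, 0.429 and 0.333 after Benjamini-Hochberg adjustment over the 3 pairs). The smallest p that these designs allow in the exact test are 0.0286, 0.0179 and 0.00794. With 0 to 9 counts of Bcl9l in a library the ratio is imprecise. With 2 counts added in place of 0.5 the ratio was 0.999 higher at 24 hours than in the spleen (exact permutation p = 0.0286) and 1.02 higher than at 72 hours (-1.02 as 72 minus 24 hours, exact permutation p = 0.0238). Both p are unadjusted, and the first is the smallest that its design allows. The larger added count evens out the few Bcl9l counts and hardly alters those of Cxcr5. It thereby draws the ratio towards the change of Cxcr5 itself, so these values do not decide whether the proportion was kept. Whether reads of either gene were counted on the other was not tested.

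**Figure D2:**
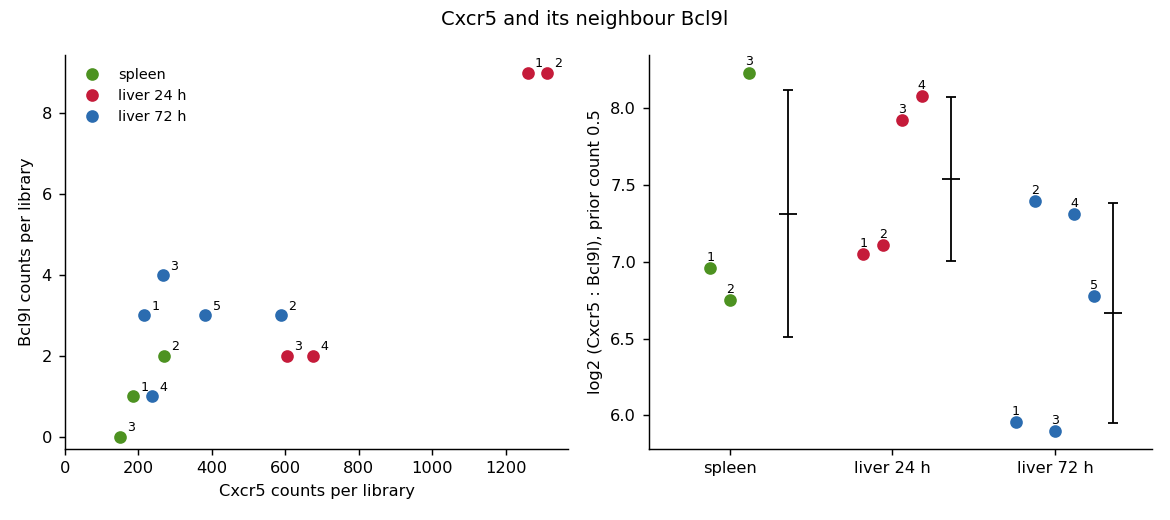
Left, counts of Bcl9l against counts of Cxcr5 in each library; right, log2 ratio of the counts (0.5 added), with group mean and SD as the cross and bars and replicate numbers beside the points. 24-hour replicates 1 and 2 stand alone with 9 counts of Bcl9l, and the ratios of the 3 groups overlap.

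Gm12868, Gm20319 and Gm45345, annotated as antisense RNAs, had the profiles nearest to that of Cxcr5 over the 12 libraries, with root mean square differences of 0.35, 0.41 and 0.46 on centred log2 CPM, where Cxcr5 itself varied by 1.28 about its mean. Gm12868 and Gm20319 overlap opposite-strand exons over 105 and 552 bases.

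Cxcr4, the receptor for CXCL12, had 58.0, 50.7 and 54.3 CPM in spleen replicates 1 to 3. At 24 hours its CPM were 18.9, 19.8, 66.5 and 41.6 in replicates 1 to 4, and at 72 hours 117, 106, 193, 84.1 and 126 in replicates 1 to 5. The 72-hour libraries all lay above those of both other groups, and 24-hour replicates 1 and 2, the highest for Cxcr5, were the lowest for Cxcr4. From 24 to 72 hours Cxcr4 rose by a log2 fold change of 1.78 (SE 0.33, 95% interval 1.09 to 2.47, edgeR adjusted p = 0.00438), or 3.44-fold, a call kept in all 22 alternatives. Against the spleen it rose at 72 hours by 1.21 (SE 0.35, edgeR adjusted p = 0.046). That call is close to the threshold: it was lost when any 1 of spleen replicates 1, 2 and 3, 24-hour replicate 4 or 72-hour replicates 1, 2, 3 and 5 was left out (8 of 12 fits, adjusted p 0.197 at most, in the absence of spleen replicate 2), and without 72-hour replicates 2 and 3 together (1.004, edgeR adjusted p = 0.22). At 24 hours the log2 difference from the spleen was -0.57 (95% interval -1.32 to 0.18, edgeR adjusted p = 0.325).

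Srr, mt-Nd4 and D8Ertd738e had the profiles nearest to that of Cxcr4, with root mean square differences of 0.33, 0.39 and 0.40, where Cxcr4 varied by 0.96 about its mean. Srr, which encodes serine racemase, overlaps opposite-strand exons over 1366 bases, and mt-Nd4 encodes a mitochondrial subunit of respiratory complex I. Of the 4 tested eosinophil and dendritic cell markers, Itgax, which encodes CD11c, was higher at 72 than at 24 hours by 1.98 on the log2 scale (edgeR adjusted p = 0.00958), the same direction as Cxcr4. Siglecf, an eosinophil marker, had 8.84 ± 1.28 CPM in the spleen (SD, n = 3), 10.6 ± 4.53 at 24 hours (SD, n = 4) and 24.1 ± 8.34 at 72 hours (SD, n = 5). It was called higher at 72 hours than in the spleen, also the direction of Cxcr4 (1.43 in log2 units, edgeR adjusted p = 0.0374; lost in 5 of 12 fits without 1 library, up to 0.169 without spleen replicate 2), and was 1.16 above its 24-hour level (edgeR adjusted p = 0.0726). DESeq2 called 2 of the 4 markers between the time points. Zbtb46 and Xcr1, the other tested markers, were not called by edgeR in any comparison. Their log2 differences from the spleen at 72 hours were -2.95 and -0.95, opposite to Cxcr4 (edgeR adjusted p = 0.119 and 0.796). Between the time points they differed by -0.22 and 0.20. Epx and Il5ra had no count at 72 hours. Prg2 had no count in any library and Siglech none in a liver library, and the summed level of the 10 markers of the list was 30.1 to 75.2, 11.4 to 34.3 and 54.5 to 98.7 CPM in spleen, 24-hour and 72-hour libraries. The part of such cells in the Cxcr4 difference was not tested.

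**Figure D3:**
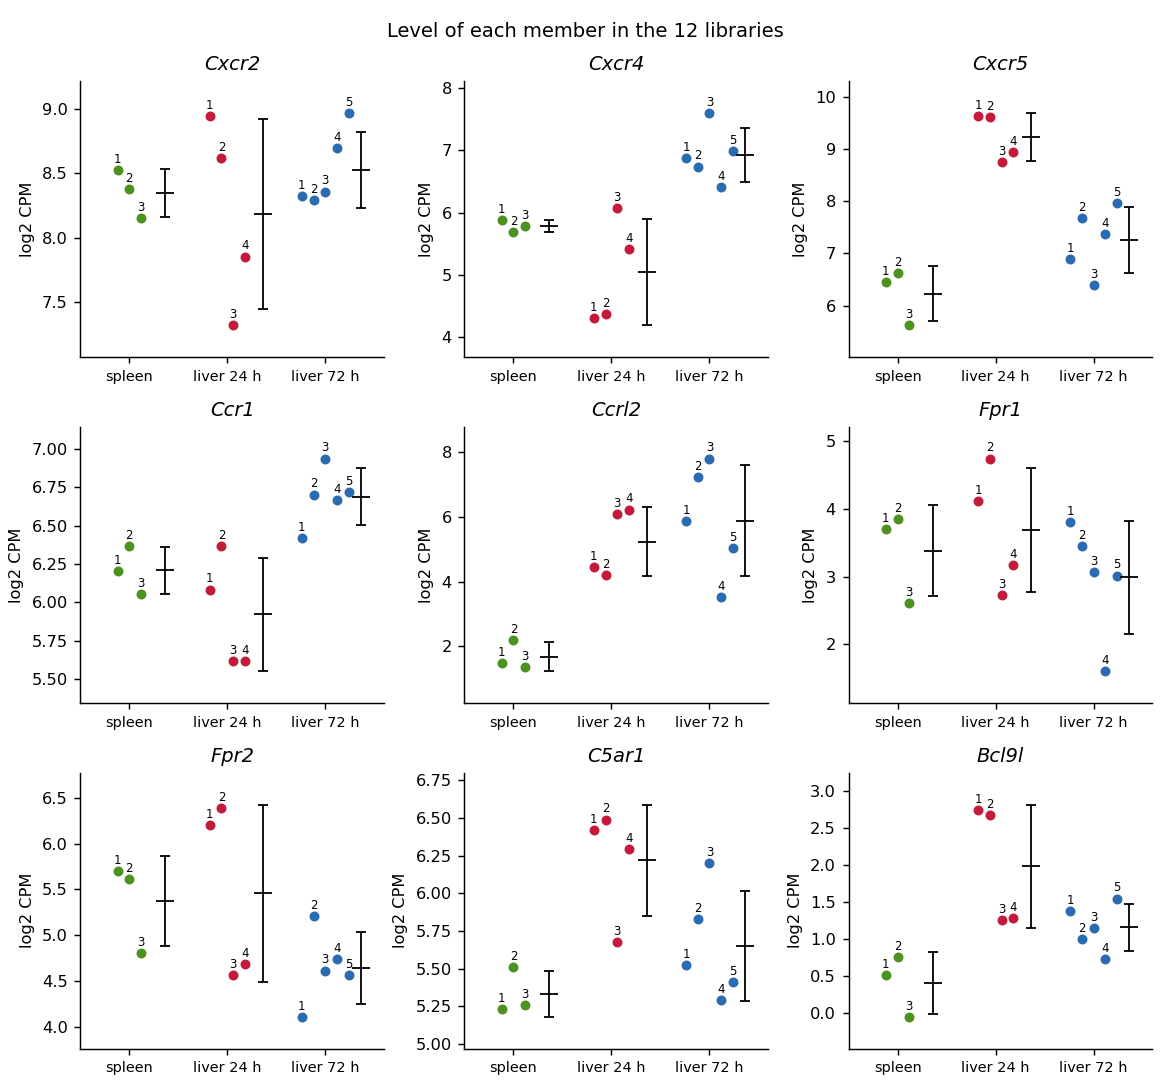
Log2 CPM (prior count of 2) of the 9 members in each library, coloured by group, with replicate numbers above the points and the group mean and SD as the cross and bars; each panel has its own vertical scale. For Cxcr5 the 24-hour libraries form the highest group and for Cxcr4 the 72-hour libraries do, while Cxcr2 overlaps in all 3 groups.

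Cxcr2 encodes the receptor for CXCL1, CXCL2 and related chemokines. It had 367, 331 and 284 CPM in spleen replicates 1 to 3 and 491, 392, 159 and 231 CPM in 24-hour replicates 1 to 4. At 72 hours it had 320, 312, 327, 414 and 500 CPM in replicates 1 to 5. The groups overlapped, and the spread was widest at 24 hours, where replicates 1 and 2 lay above and replicates 3 and 4 below all of the splenic libraries. The log2 difference from the spleen was -0.04 at 24 hours (95% interval -0.65 to 0.57) and 0.19 at 72 hours (95% interval -0.39 to 0.78), with edgeR adjusted p of 0.954 and 0.826. Differences of up to about 1.49-fold higher at 24 hours therefore lie within the interval.

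Ccr1, a receptor for CCL3 and CCL5, had 72.8, 81.6 and 65.6 CPM in the spleen, 66.9, 81.6, 48.1 and 48.1 CPM at 24 hours and 84.6, 103, 122, 101 and 104 CPM at 72 hours, in replicate order. The 72-hour libraries lay above all others, whereas the spleen and 24-hour libraries overlapped. The direct difference between time points, 0.75 on the log2 scale (SE 0.23, 95% interval 0.28 to 1.22), missed the threshold (edgeR adjusted p = 0.0583; 0.0192 to 0.21 over the alternatives, 3 of which called it). Against the spleen the 72-hour value was 0.49 (edgeR adjusted p = 0.311). Of the 9 members, 3 had groups that did not overlap between 72 hours and spleen (Cxcr4, Ccr1 and Ccrl2), against 12% of all tested genes, and 3 between the time points (Cxcr4, Cxcr5 and Ccr1), against 9.51%.

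Ccrl2 encodes an atypical receptor that binds the chemoattractant chemerin without signalling through G proteins. It was near the limit of detection in the spleen, at 1.86, 3.62 and 1.61 CPM in replicates 1 to 3 (4 to 10 counts). At 24 hours it had 20.8, 17.4, 66.5 and 73.7 CPM in replicates 1 to 4, and at 72 hours 56.9, 149, 221, 10.4 and 31.8 CPM in replicates 1 to 5. Every liver library lay above every splenic library, while the liver groups overlapped and 72-hour replicates 4 and 5 were the lowest of their group. The rise over the spleen was 4.19 in log2 units at 24 hours (SE 0.85, 95% interval 2.43 to 5.96, edgeR adjusted p = 0.00283; 0.0832 under limma-voom, the highest of the alternatives) and 5.29 at 72 hours (SE 0.85, 95% interval 3.52 to 7.06, edgeR adjusted p = 4.24e-04). The size at 72 hours leaned on replicates 2 and 3: it was 4.69 without replicate 3 and 3.78 without both, still called in each. The 72-hour and 24-hour groups were not separated (1.10, standard error 0.58, edgeR adjusted p = 0.28), and without 72-hour replicates 2 and 3 the direction turned (-0.41, edgeR adjusted p = 0.741). The difference was called with no filter on low values (1.10, edgeR adjusted p = 0.00556) and without 72-hour replicates 4 and 5 (1.67, edgeR adjusted p = 0.0219), an alternative chosen after seeing the data.

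Monocytes and macrophages also carry Ccrl2, Ccr1 and C5ar1. The summed level of the 12 monocyte and macrophage markers was 127 to 164 CPM in the spleen, 146 to 208 CPM at 24 hours and 129 to 192 CPM at 72 hours. The Kupffer cell genes Clec4f and Timd4, and C1qa, C1qb and C1qc, had at most 3 counts in any library, and Clec4f and C1qa had none. Cd5l and Marco had no count at 24 hours, and Marco had none in the spleen either. Vsig4, Adgre1 and Csf1r were detected in every group. Vsig4 had 18.2 ± 12.7 CPM in the spleen (SD, n = 3), 12.1 ± 9.04 at 24 hours (SD, n = 4) and 8.74 ± 5.66 at 72 hours (SD, n = 5). Adgre1 had means of 6.91, 7.10 and 8.20 CPM, and neither gene was called in any comparison. Csf1r, the receptor for macrophage colony-stimulating factor and most of the sum, had 92.8 ± 18.8 CPM in the spleen (SD, n = 3), 141 ± 24.6 at 24 hours (SD, n = 4) and 137 ± 25.4 at 72 hours (SD, n = 5). Its 24-hour libraries lay above those of the spleen, as for Ccrl2 and C5ar1, but the difference was not called (0.61 in log2 units, edgeR adjusted p = 0.122). Ly6c2, a monocyte marker that neutrophils also carry, was called lower than in the spleen in both liver groups, with log2 differences of -2.60 and -3.01 at 24 and 72 hours (edgeR adjusted p = 0.00472 and 8.44e-04). The part of monocytes and macrophages in the differences of Ccrl2 and C5ar1 was not tested.

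C5ar1 encodes the receptor for the complement fragment C5a. It had 36.6, 44.6 and 37.3 CPM in spleen replicates 1 to 3, 84.5, 88.8, 50.2 and 77.3 CPM in 24-hour replicates 1 to 4 and 45.0, 56.0, 72.4, 38.2 and 41.5 CPM in 72-hour replicates 1 to 5. The 24-hour libraries lay above those of the spleen, and the 72-hour libraries overlapped both. Over the spleen C5ar1 rose at 24 hours by 0.93 in log2 units (SE 0.29, 95% interval 0.33 to 1.53, edgeR adjusted p = 0.0443), or 1.90-fold. Leaving out 1 library at a time, 8 of 12 fits lost the call (spleen replicates 1, 2 and 3, 24-hour replicates 1, 2 and 4 and 72-hour replicates 1 and 2), the highest adjusted p being 0.148 when spleen replicate 1 was absent. At 72 hours the difference from the spleen was 0.37 (95% interval -0.20 to 0.93, edgeR adjusted p = 0.568), and the time points were not separated (-0.56, edgeR adjusted p = 0.194).

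The formyl peptide receptors passed the test in no comparison. Fpr1, the high-affinity receptor, had 5.14 to 13.4 CPM in the spleen, 5.66 to 25.8 CPM at 24 hours and 2.08 to 13.01 CPM at 72 hours. Fpr2, which also binds annexin A1, had 51.03, 47.8 and 27.0 CPM in spleen replicates 1 to 3, 72.5, 82.8, 22.6 and 24.8 CPM in 24-hour replicates 1 to 4 and 16.3, 35.9, 23.5, 25.7 and 22.7 CPM in 72-hour replicates 1 to 5. For both genes 24-hour replicates 1 and 2 were the highest of all libraries, and the groups overlapped. The Fpr2 difference between time points was -1.03 on the log2 scale (SE 0.36, edgeR adjusted p = 0.102), and that of Fpr1 was -0.80 (SE 0.48, edgeR adjusted p = 0.352). The genes belong to a family of close copies, and 48 UTR bases of Fpr2 are shared with Fpr3 on the same strand, and reads aligned to several places are held in a separate row of the table and are not in these counts.

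**Figure D4:**
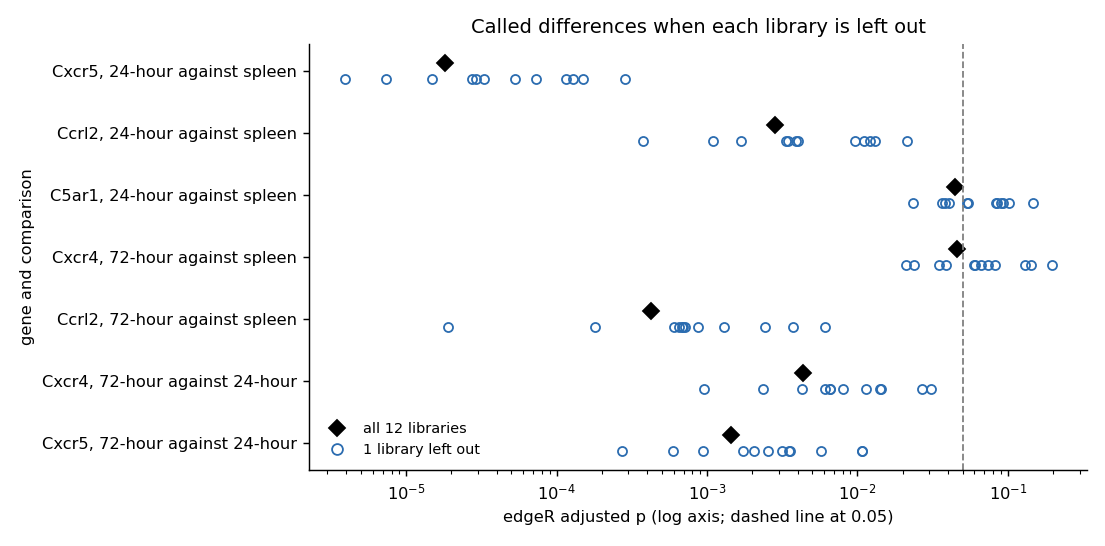
Adjusted p of the 7 called differences with all 12 libraries (diamonds) and in each of the 12 fits that left out 1 library (circles), on a log axis with the threshold of 0.05 dashed. Circles of C5ar1 at 24 hours and of Cxcr4 at 72 hours against the spleen lie on both sides of the line, 8 of 12 above it in each case, and those of the other 5 differences stay below it.

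Divided by exon length, the order of levels within a group also differed. In the spleen Cxcr2 came first at 107 ± 13.7 CPM per kilobase (SD, n = 3), followed by Fpr2 (32.4 ± 10.1), Cxcr4 (30.1 ± 2.002), Ccr1 (25.9 ± 2.82), Cxcr5 (23.2 ± 7.75), C5ar1 (15.4 ± 1.71), Fpr1 (7.71 ± 3.35), Ccrl2 (0.909 ± 0.423) and Bcl9l (0.0495 ± 0.0459). The ranges of 1 SD of Fpr2, Cxcr4, Ccr1 and Cxcr5 overlap from each to the next. At 24 hours Cxcr5 came first at 188 ± 57.8 CPM per kilobase (SD, n = 4) and Cxcr2 next at 104 ± 49.4, and their ranges of 1 SD overlap. Fpr2 (39.1 ± 24.3), C5ar1 (29.3 ± 6.74), Ccr1 (21.6 ± 5.73), Cxcr4 (20.3 ± 12.4), Ccrl2 (17.2 ± 11.4) and Fpr1 (10.6 ± 6.90) followed, and their ranges of 1 SD overlap from each to the next. At 72 hours Cxcr2 (123 ± 26.6, SD, n = 5) was followed by Cxcr4 (69.2 ± 22.8) and Cxcr5 (49.1 ± 19.8), the last pair with overlapping ranges of 1 SD, and Ccr1 (36.3 ± 4.65) and Ccrl2 (36.1 ± 34.1) were alike in mean but not in spread.

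Ligands of these receptors were taken as a list of 20 genes, of which 11 were tested. At 24 and at 72 hours alike 4 were called higher and 2 lower than in the spleen, and between the time points none was (2 of 11 at an unadjusted p below 0.05, and none with DESeq2 or limma-voom). The calls against the spleen are 54.5% of the 11 at each time, beside 9.75% and 5.33% of all tested genes. Between the time points 4.49% of all tested genes were called. Among them Cxcl2, a ligand of CXCR2, had 4 counts in all of the splenic libraries together against 1075 at 24 hours, a ratio of 357 (95% interval 139 to 1313, counting error only). Ccl3, a ligand of CCR1, was higher by 3.46 at 24 hours and 3.37 at 72 hours on the log2 scale (edgeR adjusted p = 5.14e-04 and 6.28e-04). Hc, which encodes complement C5, the precursor of the ligand of C5AR1, had 23.2, 24.6 and 4.502 CPM in spleen replicates 1 to 3 and 0 to 3 counts in each liver library (edgeR adjusted p = 0.00175 at 24 hours and 5.01e-04 at 72 hours), and it overlaps opposite-strand exons over 76 bases.

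Of 29 genes of receptor signalling and desensitization 28 were tested. At 24 hours 2 were called lower, Grk6 and Plcb2, 1 was called higher at 72 hours against the spleen, Rgs1, and 1 was called higher at 72 than at 24 hours, Rgs2. These are 7.14%, 3.57% and 3.57% of the 28, below the 9.75%, 5.33% and 4.49% of all tested genes called in the same comparisons. Grk6 encodes a kinase that desensitizes CXCR4 and other receptors; its CPM fell from 45.1 ± 4.57 (SD, n = 3) to 19.0 ± 7.68 (SD, n = 4), which is -1.23 in log2 units (edgeR adjusted p = 0.0238), a call that 4 of 12 fits without 1 library lost (up to 0.0919 without spleen replicate 2). Plcb2, a phospholipase downstream of these receptors, changed by -1.29 in log2 units (edgeR adjusted p = 0.046), lost in 8 of 12 such fits (up to 0.245 without spleen replicate 1). Rgs1, a GTPase activator that shortens G protein signals, had no count in the 3 splenic libraries and 3 to 57 counts at 72 hours, at least 7.32-fold higher against a floor of 3 counts per library. Rgs2, of the same family, had 111 ± 10.8 CPM (SD, n = 5) at 72 hours against 55.1 ± 11.6 (SD, n = 4) at 24 hours, a log2 difference of 1.01 (edgeR adjusted p = 0.0106; 0.051 without 24-hour replicate 1).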

How the data were processed

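Reads were aligned to GRCm38 with STAR 2.7.9a, as the submitters' processing notes give it, and the authors deposited the HTSeq-count result as whole-number counts per gene for the 12 libraries, without normalization; the strand option is not given in the sources used here. Rows that name no gene entered neither library sizes nor tests. The counter assigned 96.8% to 97.3% of the uniquely aligned reads to no gene, and whether these lay on the opposite strand of a gene was not tested. Of 48709 gene rows, 48349 matched the GENCODE M21 annotation by Ensembl identifier without version.

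Genes above 1 CPM in at least 3 libraries were kept (12488). TMM factors ranged from 0.740 to 1.24, with the lowest at 24 hours. The 3 pairs of groups were tested in 1 fit with edgeR 4.0.16 (quasi-likelihood, R 4.3.3) and Benjamini-Hochberg adjustment; a call needs an adjusted p below 0.05 and a log2 fold change of 0.5 or more in either direction. Intervals on counts cover counting error only, and a group with at most 3 counts in every library is at the floor. The test was first tried on simulated data. Alternatives were DESeq2 1.42.0, limma 3.58.1 (voom), other scalings, filters and fold limits, fits of 2 groups, a replicate block and left-out libraries.

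The members, gene lists and tests were chosen with earlier results of these data known. Named are the members, genes overlapping them, at most 3 called genes per list and comparison by adjusted p, and the 3 nearest profiles of Cxcr4 and Cxcr5. Marker genes named without a call, Ly6g and C5ar2 were picked after their values were seen. One gene of the B cell marker list is not reported here and was left out of its summed level. The other genes, the quantitative PCR and the flow cytometry were not analysed here.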

Additional observations from a re-analysis of the deposited data

Results flagged for a closer look

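Cxcr4 and Cxcr5 differed between the time points in the direct test of 72-hour against 24-hour hepatic neutrophils. Splenic levels do not enter this test, although the splenic libraries share the fit and its estimate of the spread. The log2 difference, 72 minus 24 hours, was 1.78 for Cxcr4 (edgeR adjusted p = 0.00438), with all 5 libraries at 72 hours above all 4 at 24 hours. For Cxcr5 it was -1.94 (edgeR adjusted p = 0.00144), with all 5 libraries below all 4. Among the 18 groups of 4 or 5 libraries examined, no library stood apart by Dixon's criterion. The spleen, with 3 libraries, was not among these groups, and in groups this small the criterion can miss libraries that differ.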

How the results depend on the processing

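Depth limits Bcl9l, Fpr1 and splenic Ccrl2 most, with 0 to 9, 3 to 43 and 4 to 10 counts per library. Over the single-gene results and their alternatives, 549 values kept direction and side of the threshold, 20 lost a call, 13 gained one and 9 turned direction; the cause was not tested. Members called numbered 2 to 3 at 24 hours, 1 to 2 at 72 hours and 2 to 3 between time points when 1 library was left out. At 72 hours 1 member was called with filterByExpr or without 72-hour replicates 2 and 3, and 4 between time points with no filter. The Cxcr2 difference at 24 hours turned to 0.029 under upper-quartile scaling, and without 1 library it ranged from -0.33 to 0.18, above 0 without spleen replicate 1 (0.052), 24-hour replicate 3 or 24-hour replicate 4 (0.084). Likewise Fpr1 and Fpr2 at 24 hours ranged from -0.0093 to 0.73 and from -0.063 to 0.52, below 0 without 24-hour replicate 2. Ccrl2 between time points was -0.41 without 72-hour replicates 2 and 3. Without 72-hour replicates 4 and 5, an alternative chosen after seeing the data, Cxcr2 turned to -0.030 at 72 hours and -0.0087 between time points, neither called, and Ccrl2 became a call between time points (1.67). With 1 library left out, the log2 ratio of Cxcr5 to Bcl9l differed from the spleen by -0.054 (without spleen replicate 2) to 0.69 at 24 hours and by -0.93 to -0.19 at 72 hours, and between time points by -1.06 to -0.68; with a prior count of 2 it was 0.999 and -1.02 for 24 hours against spleen and between time points.

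Of 10 same-number pairs of libraries, 1 correlated above 0.1 (-0.116 to 0.13), and 2 of 11 libraries correlated best with their own number. With so few libraries per group, these correlations cannot decide whether libraries of the same number belong together. With a replicate block 3, 3 and 2 members were called, and 1302, 874 and 599 genes in place of 1218, 666 and 561; Cxcr5 at 72 hours against spleen, at 0.88 with an edgeR adjusted p of 0.0367, was the only member whose call changed.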

Other observations

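Of 19 other chemokine receptors, 9 were tested, and Ackr4 was the only one called. It makes up 11.1% of the 9 in each comparison, beside 9.75%, 5.33% and 4.49% of all tested genes at 24 hours, at 72 hours and between time points. Ackr4 encodes an atypical receptor that takes up CCL19, CCL21 and CCL25 without signalling through G proteins. Its CPM were 271, 305 and 118 in spleen replicates 1 to 3, 116, 109, 67.2 and 68.6 in 24-hour replicates 1 to 4 and 28.7, 28.0, 32.5, 51.4 and 54.5 in 72-hour replicates 1 to 5, so that no groups overlapped. It was lower at 24 hours than in the spleen (-1.35 in log2 units, SE 0.32, edgeR adjusted p = 0.00943), at 72 hours (-2.58, SE 0.31, edgeR adjusted p = 1.44e-05) and at 72 than at 24 hours (-1.22, SE 0.29, edgeR adjusted p = 0.0201). The 72-hour call was kept in all 12 fits that left out 1 library; 2 lost the 24-hour call (adjusted p up to 0.0793 without spleen replicate 2) and 5 the last (up to 0.0842 without 24-hour replicate 1). Ackr4 overlaps opposite-strand exons over 479 bases, and their part in its counts was not tested.

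Of 17 other chemoattractant receptors, among them C5ar2, Ltb4r1, Ptafr and C3ar1, 10 were tested and edgeR called none in any comparison. Of all tested genes it called 9.75%, 5.33% and 4.49% in the 3 comparisons. At an unadjusted p below 0.05 there were 4 at 24 hours, 3 at 72 hours and 2 between time points; DESeq2 called 2 at 72 hours and none otherwise, and limma-voom none. C5ar2, the second receptor for C5a, had 16.1 ± 3.65 CPM in the spleen (SD, n = 3), 7.66 ± 5.05 CPM at 24 hours (SD, n = 4) and 15.1 ± 2.14 CPM at 72 hours (SD, n = 5).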
